A study of Mus musculus with 4 samples.

Results

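The genes described here encode the Aurora kinases Aurka, Aurkb and Aurkc, the Aurora B partners Incenp, Birc5 and Cdca8, the Aurora A activator Tpx2, the Polo kinase Plk1 and the microtubule bundling protein Prc1. The list was set by gene name, with no threshold on measured values but with earlier results of these data known, and all 9 were found among the 18714 genes of the deposited expression table, with a mean of over 10 scaled reads each. RNA sequencing had been carried out on mouse 2-cell embryos of an outbred ICR strain. Every embryo, treated or control, was homozygous for a degron-tagged allele of Nelfb (genotype Nelfb dTAG/dTAG), and so were both parents. Its product is part of negative elongation factor (NELF), which keeps RNA polymerase II in pause near gene starts, and dTAG-13 is a compound that recruits a ubiquitin ligase to proteins with the tag, which are then degraded. Zygotes collected after natural mating spent 30 hours in KSOM, a medium for embryos, that held 500 nM dTAG-13 (2 libraries) or 0.01% DMSO, the vehicle (2 libraries). Each library held the polyadenylated RNA of a pool of 3 embryos. Embryos without the tagged allele and embryos before culture were not analysed here, so an effect of the tag itself, which both groups carry, was not measured.

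Cell division is driven by these kinases in sequence. Aurora A gathers at the spindle poles, where Tpx2 switches it on, and with its cofactor Bora it activates Plk1. Aurora B works as the enzyme of the chromosomal passenger complex with Incenp (scaffold), Birc5 (survivin) and Cdca8 (borealin). The complex corrects faulty chromosome attachments at centromeres and then moves to the spindle midzone, where Prc1 crosslinks antiparallel microtubules and docks Plk1 for cytokinesis. Aurora C is a close relative of Aurora B that is known from germ cells and is present in mouse oocytes and early embryos, where it can take the place of Aurora B in the complex.

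Reads assigned to genes numbered 38112685 and 33897568 for dTAG-13 and 18923479 and 16522506 for DMSO. Values below are scaled reads, that is, reads divided by the authors' size factor of the library; 1 read was worth 0.622 and 0.697 scaled reads in dTAG-13 pools, against 1.20 and 1.62 in DMSO pools. Nelfb, whose protein and not transcript is the target of dTAG-13, had 63.4 and 35.6 scaled reads in dTAG-13 pools, against 183 and 69.8 in DMSO pools (limma adjusted p = 0.343), which checks neither group's label. All 8 listed 2-cell embryo genes were in the table, and their summed level was 66474 and 77224 scaled reads in dTAG-13 pools, against 185641 and 171571 in DMSO pools. The 8 oocyte-derived markers summed to 11036 and 11296 scaled reads in dTAG-13 pools, against 36878 and 56374 in DMSO pools. Of a longer list of 44 transcripts stored in the oocyte, 0 were higher and 31 were lower with dTAG-13 in limma, and the median log2 fold change was −2.38. Markers of other cells that pools can carry were read as sums of scaled reads. Those of cumulus cells (4 of 10 in the table) summed to 465 and 423 in dTAG-13 against 991 and 344 in DMSO libraries. Those of sperm (5 of 8) summed to 38.6 and 40.4 in dTAG-13 against 160 and 138 in DMSO libraries. Those of oviduct epithelium (3 of 4) came to 7895 and 7112 in dTAG-13 pools, against 4324 and 3980 in DMSO pools. Of these 3, Ovgp1 and Krt8 had no read in at least 1 library, and only Epcam had reads in every library. Which cells the reads came from was not tested. The blood markers (2 of 3) came to 202 and 154 in dTAG-13 pools, against 1062 and 1066 in DMSO pools. The part of depth, of oocyte RNA and of other cells in the results below was not tested. In such pools of whole embryos a different number of cells or cell cycle phase and a different amount of RNA per cell cannot be told apart.

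Of the 9 genes, 5 were higher and 0 were lower in embryos cultured with dTAG-13 (limma, Benjamini-Hochberg adjusted p under 0.05 over all genes tested), against 8.94% higher and 9.79% lower of the 15978 genes tested. The 5 were Aurka, Tpx2, Plk1, Cdca8 and Prc1, with ratios of group means between 2.57 (Tpx2) and 4.80 (Aurka). Aurkb, Aurkc, Incenp and Birc5 did not pass. The median log2 fold change of the 9 genes was 1.38, against −0.10 over all genes tested. Libraries scaled instead on 13 mitochondrially encoded genes gave 0 calls among the 9 and 0 among all 15978 genes tested. On that scaling 7 of the 9 had an unadjusted limma p under 0.05, as had 5565 of all genes. Libraries scaled on the oocyte transcripts gave 9 calls, all higher, beside 7054 higher and 322 lower of the 15978 genes. These scalings moved the median of all genes to 0.79 and to 2.21. A positive fold change was found for 8 of the 9, against 48.3% of genes tested, and one of at least 1 on the log2 scale for the same number, against 32.1%. For 7 genes both dTAG-13 libraries lay above both DMSO libraries, as for 32.2% of genes tested; for Aurkb and Birc5 the groups overlapped. An unadjusted p under 0.05 was found for 6 of the 9, all higher, against 39.2% of genes tested in either direction.

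**Figure D1:**
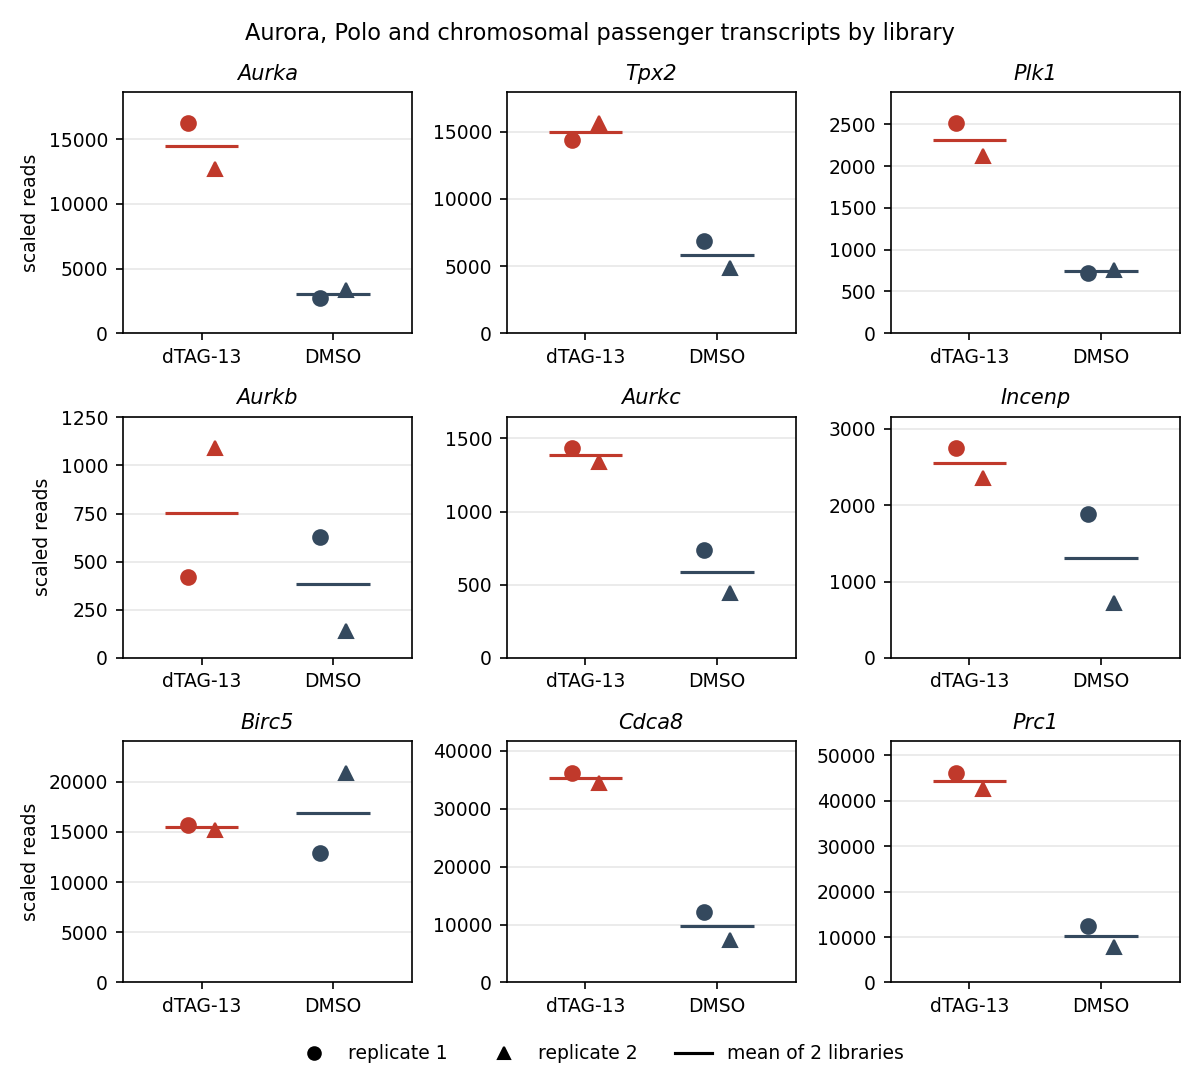
Scaled reads of each gene (vertical axes, from 0) in the 2 dTAG-13 libraries (red, left) and the 2 DMSO libraries (dark blue, right); circles are replicate 1, triangles replicate 2 and bars the mean of 2 libraries. The groups are apart for 7 genes and overlap for Aurkb and Birc5.

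Genes expressed late in the cell cycle often carry, near their start sites, CCAAT, bound by the factor NF-Y, and the cell cycle homology region, with the core TTTGAA, which the DREAM complex is known to bind. RefSeq windows (GRCm38.p6) of 300 bases, from 250 before to 50 after the start site, were matched for 6 of the 9 genes. Tpx2, which rose, had no window, and neither had Aurkb and Incenp. Shown here are the windows of the 4 genes that rose and were matched, for the motifs they share, and that of Birc5, which did not pass, to set beside them. The window of Aurkc, which did not pass either, is described below and not printed. Capitals mark TTTGAA or CCAAT on either strand (CCAAT on the other strand reads ATTGG), and in Cdca8 the motifs overlap in the run TTTGAATTGG. Each is printed in the direction of transcription.
Aurka, chr2:172370521-172370820, minus strand: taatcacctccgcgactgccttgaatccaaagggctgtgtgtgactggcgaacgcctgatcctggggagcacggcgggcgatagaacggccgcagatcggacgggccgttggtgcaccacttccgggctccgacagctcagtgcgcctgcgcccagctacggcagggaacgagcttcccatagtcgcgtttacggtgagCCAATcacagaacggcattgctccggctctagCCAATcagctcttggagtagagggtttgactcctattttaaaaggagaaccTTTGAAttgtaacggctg
Cdca8, chr4:124936868-124937167, minus strand: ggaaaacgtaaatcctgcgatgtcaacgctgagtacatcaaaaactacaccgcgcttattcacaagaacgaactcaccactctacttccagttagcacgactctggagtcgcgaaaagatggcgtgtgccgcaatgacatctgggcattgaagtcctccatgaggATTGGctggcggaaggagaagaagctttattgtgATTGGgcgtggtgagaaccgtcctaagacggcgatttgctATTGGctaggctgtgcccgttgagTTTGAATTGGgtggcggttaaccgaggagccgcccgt
Prc1, chr7:80294201-80294500, plus strand: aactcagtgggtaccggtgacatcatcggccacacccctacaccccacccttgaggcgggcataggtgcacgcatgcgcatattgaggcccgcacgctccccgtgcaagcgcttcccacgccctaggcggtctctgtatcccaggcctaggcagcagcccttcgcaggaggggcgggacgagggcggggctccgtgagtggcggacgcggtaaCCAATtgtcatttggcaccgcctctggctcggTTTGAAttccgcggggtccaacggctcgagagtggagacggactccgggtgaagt
Plk1, chr7:122159185-122159484, plus strand: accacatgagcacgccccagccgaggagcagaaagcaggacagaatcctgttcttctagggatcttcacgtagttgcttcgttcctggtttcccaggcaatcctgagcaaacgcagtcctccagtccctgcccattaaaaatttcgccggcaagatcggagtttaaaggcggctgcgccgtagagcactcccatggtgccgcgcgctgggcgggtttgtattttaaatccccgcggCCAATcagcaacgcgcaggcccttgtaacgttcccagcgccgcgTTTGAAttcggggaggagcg
Birc5, chr11:117848987-117849286, plus strand: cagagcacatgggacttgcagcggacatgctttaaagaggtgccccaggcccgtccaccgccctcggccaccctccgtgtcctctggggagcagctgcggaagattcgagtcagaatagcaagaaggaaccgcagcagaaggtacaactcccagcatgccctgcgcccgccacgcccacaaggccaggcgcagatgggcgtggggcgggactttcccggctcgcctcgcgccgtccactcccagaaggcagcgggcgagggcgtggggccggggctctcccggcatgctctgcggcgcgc

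The first 4 windows each held TTTGAA on the sense strand close to the start site, with its first base at +33 in Aurka, +14 in Cdca8, −5 in Prc1 and +31 in Plk1 (+1 is the start site). RefSeq gives Prc1 a second start site farther downstream, from which the same TTTGAA lies at −30. The Cdca8 window reaches chr4:124937167 and so lies inside the GENCODE gene, whose upstream end is at 124939311. Its start site is thus not the outermost one, and which start site was used in these embryos was not tested. Each of them also held CCAAT, once in Prc1 and Plk1, 2 times in Aurka and 4 times, on the other strand, in Cdca8. The Aurkc window held CCAAT on the other strand at +25 and no TTTGAA, and the Birc5 window held neither run of letters. Among the 10846 genes tested with a window, 12.6% held TTTGAA, 39.9% CCAAT and 5.39% both. Among the 1054 of these that were higher with dTAG-13 the shares were 12.7%, 41.1% and 5.88%, and among the 1125 that were lower they were 15.7%, 39.6% and 7.02%. Over all 32851 windows of the table TTTGAA occurred in 17.9%. Both motifs were present in each of the 4 matched genes that rose, while their share among all genes that rose was close to that among all genes tested. Whether any of these matches is bound or works in these embryos was not tested.

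Aurka (ENSMUSG00000027496.15, chr2:172356190-172370535, minus strand, GRCm38) encodes the spindle pole kinase. It had 16216 and 12682 scaled reads in dTAG-13 pools, against 2698 and 3326 in DMSO pools. The lower dTAG-13 library was 3.81 times the higher DMSO library, and replicates differed by at most 1.28 times. Its log2 fold change of 2.26 ± 0.26 (SE; limma adjusted p = 0.0219) was the highest of the 9, on log2(scaled reads + 1). The group means were 14449 ± 2499 with dTAG-13 and 3012 ± 444 with DMSO (SD, n = 2 each).

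Tpx2 (ENSMUSG00000027469.16, chr2:152847964-152895321, plus strand) encodes the spindle assembly factor that binds and activates Aurora A. It had 14400 and 15606 scaled reads in dTAG-13 pools, against 6845 and 4847 in DMSO pools. It rose with dTAG-13 by 1.38 ± 0.26 on the log2 scale (SE; limma adjusted p = 0.0321). Per kilobase of exon model, Aurka over Tpx2 was 2.53 and 1.83 in dTAG-13 pools, against 0.887 and 1.54 in DMSO pools. This ratio does not depend on the scaling between libraries, and its groups did not overlap, though the nearer pair of libraries lay close together. Its p of 0.333 is the smallest that 2 against 2 libraries allow (exact permutation test of the log2 ratio, two-sided, the same for each of the 3 ratios of this kind given here, which were chosen after their values were seen). The 95% intervals of the log2 fold changes, 1.59 to 2.93 for Aurka and 0.71 to 2.05 for Tpx2, overlapped.

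Plk1 (ENSMUSG00000030867.7, chr7:122159439-122169873, plus strand), the Polo kinase of mitotic entry and cytokinesis, had 2509 and 2126 scaled reads in dTAG-13 pools, against 719 and 760 in DMSO pools. Its log2 fold change was 1.64 ± 0.30 (SE; limma adjusted p = 0.0309). The replicates of each group lay close together, within 1.18 times for dTAG-13 and 1.06 times for DMSO. Of the 50-base windows of its longest principal transcript, 6.84% also occur in the pseudogene Plk-ps1 and 5.07% in Gm44985 on the opposite strand.

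Prc1 (ENSMUSG00000038943.16, chr7:80294450-80316259, plus strand) crosslinks the microtubules of the midzone and had the highest mean scaled reads of the 9 genes over the 4 libraries, although Birc5 was higher in both DMSO libraries. It had 46156 and 42518 scaled reads in dTAG-13 pools, against 12469 and 7837 in DMSO pools. Its log2 fold change was 2.16 ± 0.29 (SE; limma adjusted p = 0.0223). The lower dTAG-13 library was 3.41 times the higher DMSO library. Exons of Prc1 overlap those of Rccd1 on the opposite strand, and the libraries were not stranded. Of the 50-base windows of the longest principal Prc1 transcript, 24.0% also occur in Rccd1 transcripts. Rccd1 itself had 261 and 220 scaled reads with dTAG-13 and 270 and 315 with DMSO (log2 fold change −0.28; limma adjusted p = 0.680).

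Cdca8 (ENSMUSG00000028873.16, chr4:124918465-124939311, minus strand) encodes borealin, the passenger subunit that helps to place the complex at centromeres. It had 36247 and 34380 scaled reads in dTAG-13 pools, against 12150 and 7396 in DMSO pools. It rose by 1.90 ± 0.30 on the log2 scale (SE; limma adjusted p = 0.0250). Its exons overlap those of 9930104L06Rik on the opposite strand, which had 2436 and 2137 scaled reads with dTAG-13 and 745 and 417 with DMSO. That gene rose as well, by 2.03 ± 0.40 (SE; limma adjusted p = 0.0350), and the libraries were not stranded. Of the 50-base windows of the longest principal Cdca8 transcript, 0 of 1577 occur in transcripts of another gene. That transcript has 1626 bases and the merged exons have 2195, so an overlap outside it was not searched. The part of reads from the opposite strand in the Cdca8 values was not tested.

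Birc5 (ENSMUSG00000017716.15, chr11:117849251-117855743, plus strand) encodes survivin, the subunit that reads the centromeric histone mark. It had 15731 and 15186 scaled reads in dTAG-13 pools, against 12929 and 20904 in DMSO pools. The dTAG-13 libraries lay between the DMSO libraries, so the groups overlapped. Its log2 fold change was −0.09 ± 0.29 (SE), with a 95% interval from −0.84 to 0.66 (limma adjusted p = 0.846). The lower limits of the intervals of Aurka (1.59), Prc1 (1.43), Cdca8 (1.14) and Plk1 (0.87) lay above the upper limit of Birc5. The lower limit of Tpx2 (0.71) did so too. These differences between genes were not tested as such. Within each library, Cdca8 per kilobase was 3.57 and 3.51 times Birc5 in dTAG-13 pools, against 1.46 and 0.548 times in DMSO pools. The groups did not overlap (exact permutation p = 0.333, the smallest possible). The size of this ratio depends on the exon lengths used, and the separation of the groups does not.

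Incenp (ENSMUSG00000024660.8, chr19:9872296-9899551, minus strand), the scaffold that holds the complex together and activates Aurora B, had 2748 and 2358 scaled reads with dTAG-13 and 1886 and 724 with DMSO. The groups did not overlap, but the DMSO libraries differed by 2.61 times. The log2 fold change was 1.12 ± 0.52 (SE), with a 95% interval from −0.21 to 2.45 (limma adjusted p = 0.178). A change of the size seen for Cdca8 lies inside this interval, as does 0.

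Aurkb (ENSMUSG00000020897.12, chr11:69045647-69051664, plus strand), the kinase of the complex, had the widest interval of the 9 genes. It had 418 and 1090 scaled reads in dTAG-13 pools, against 626 and 138 in DMSO pools. Replicates differed by 2.61 times with dTAG-13 and by 4.53 times with DMSO, and the groups overlapped. These rested on 672 and 1563 whole reads in dTAG-13 pools, against 521 and 85 in DMSO pools. The log2 fold change was 1.20 ± 0.90 (SE), with a 95% interval from −1.11 to 3.502 (limma adjusted p = 0.372), so neither a rise nor a fall of Aurkb was detectable with these pools.

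Aurkc (ENSMUSG00000070837.4, chr7:6995300-7003091, plus strand) had 1434 and 1340 scaled reads in dTAG-13 pools, against 737 and 443 in DMSO pools. The groups did not overlap, and the ratio of the means was 2.35. Its log2 fold change of 1.28 ± 0.40 (SE) had a 95% interval from 0.26 to 2.29 and did not pass (limma adjusted p = 0.0804). DESeq2 on the recovered whole reads counted it as higher (adjusted p = 0.0341), and edgeR did not (adjusted p = 0.113). The gene has near-identical copies. Of the 50-base windows of its longest principal transcript 74.2% also occur in transcripts of other genes, and 61.3% in the processed pseudogene Gm12463. Gm12463 was listed at 774 and 690 scaled reads with dTAG-13 and 419 and 279 in DMSO pools; its ratio to Aurkc was 0.540 and 0.515 in dTAG-13 and 0.568 and 0.630 in DMSO libraries. The 2 rows together came to 2209 and 2030 scaled reads with dTAG-13 and 1156 and 722 with DMSO, again without overlap. How reads that match both were counted is not given in the sources used here, so the Aurkc values are uncertain.

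Other tools gave much the same count. edgeR on the recovered reads counted 5 of the 9 genes as higher, against 6.42% of genes tested, and DESeq2 counted 6, against 15.1%. The authors' deposited table gave 5 of the 9 a higher level at an adjusted p under 0.05, against 7.56% of its 16281 genes. These were the 5 named above, with a log2 ratio of 2.26 for Aurka (adjusted p = 4.7e-08), 2.13 for Prc1 (5.2e-11), 1.85 for Cdca8 (2.1e-08), 1.65 for Plk1 (0.0203) and 1.36 for Tpx2 (0.00016) in the authors' deposited table. With a library left out the calls in limma changed: without either dTAG-13 library 0 of the 9 passed (3 with unadjusted p under 0.05 in each case, as had 3519 of all genes without replicate 1 and 3879 without replicate 2). Without DMSO replicate 2 again 0 passed (6 with unadjusted p under 0.05, as had 4813 of all genes), and without DMSO replicate 1 only Cdca8 did. The direction of the 5 genes could not change in these 4 fits, since both dTAG-13 libraries lay above both DMSO libraries for each.

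**Figure D2:**
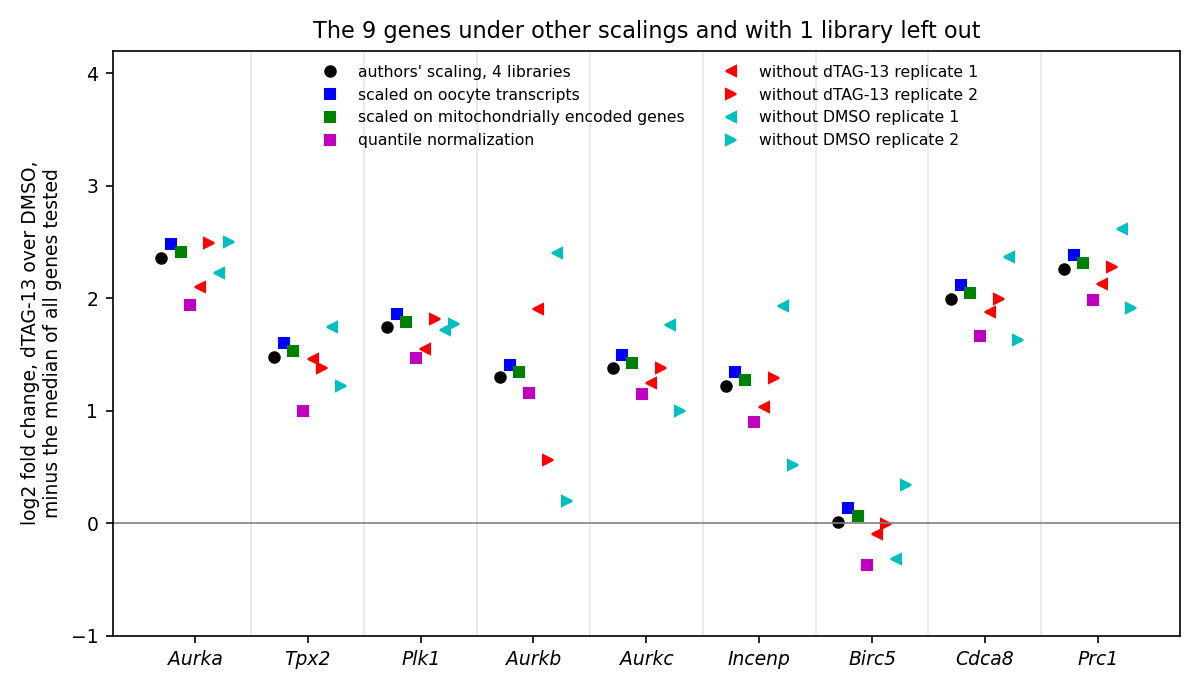
Log2 fold change of each gene minus the median of all genes tested (vertical axis) under the authors' scaling with 4 libraries (black), other scalings (squares) and with 1 library left out (triangles). Aurka, Tpx2, Plk1, Cdca8 and Prc1 stay above 0 in all of these, with the lowest value, 1.00, for Tpx2 under quantile normalization. A common factor on a library moves the median as well, so oocyte and mitochondrial scaling could change the plotted values only little. With a library left out, the direction of these genes could not change. Aurkb and Incenp range widely with the library left out, and Birc5 lies near 0.

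The order of transcript levels was read per kilobase of exon model, since genes differ in length. In dTAG-13 embryos it was Cdca8 (16088 ± 601 scaled reads per kilobase), Prc1 (12730 ± 739), Aurka (7448 ± 1288), Birc5 (4544 ± 113), Tpx2 (3437 ± 195), Plk1 (1054 ± 123), Aurkc (911 ± 43.7), Incenp (770 ± 83.1) and Aurkb (386 ± 243; SD, n = 2 each). No 2 neighbours in that order overlapped. In DMSO embryos Birc5 stood first at 4973 ± 1658 scaled reads per kilobase, before Cdca8 (4452 ± 1532) and Prc1 (2915 ± 940). Then came Aurka (1553 ± 229), Tpx2 (1339 ± 324), Incenp (394 ± 248), Aurkc (388 ± 137), Plk1 (336 ± 12.99) and Aurkb (195 ± 176). Among these, Birc5 and Cdca8, Cdca8 and Prc1, Aurka and Tpx2, Incenp and Aurkc, and Aurkc and Plk1 overlapped as neighbours. Aurkb was lowest in both groups, at percentile 80.0 of genes tested (level per kilobase) with dTAG-13 and 71.1 with DMSO, while Cdca8 stood at percentile 99.5 with dTAG-13 and 97.9 with DMSO. The place of Birc5 depends on its length: the exon model has 3.40 kb, but its longest principal transcript has 947 bases. The exon model is also longer than that transcript for Aurkc (1.523 kb against 1154 bases) and Cdca8 (2.195 kb against 1626 bases). The order on transcript lengths was not tested.

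**Figure D3:**
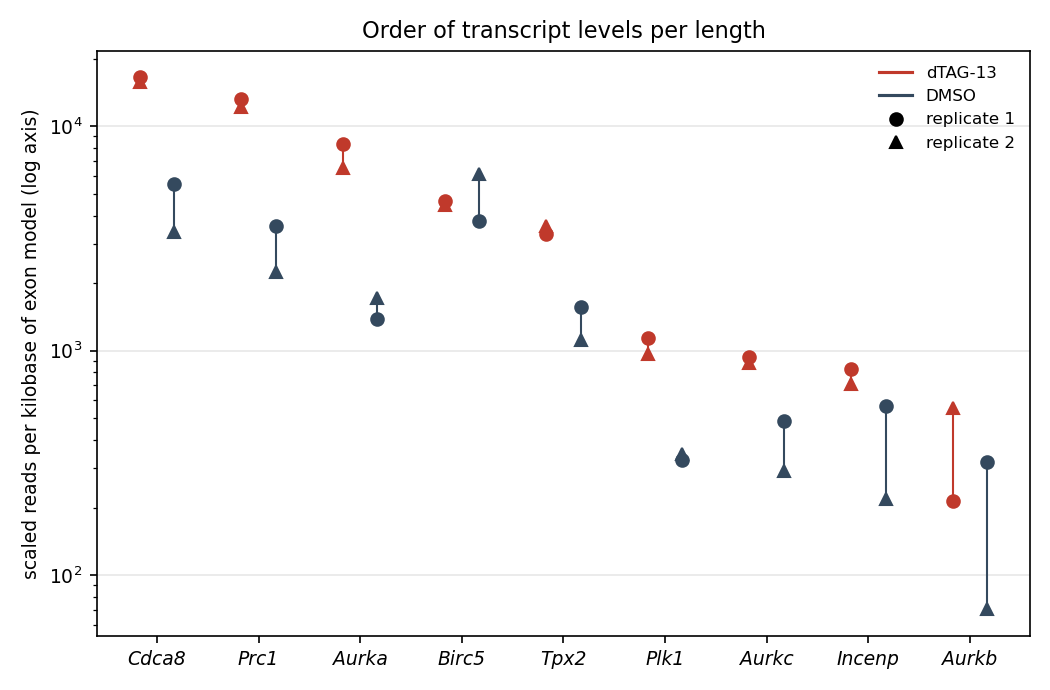
Scaled reads per kilobase of exon model (log axis) of the 9 genes, ordered by their mean in dTAG-13 libraries; red is dTAG-13, dark blue is DMSO, circles are replicate 1 and triangles replicate 2, joined by a line. Cdca8 and Prc1 lead with dTAG-13, Birc5 leads with DMSO, and Aurkb is last in both.

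Aurora kinase transcripts were then compared within each library, where the scaling between libraries has no effect. Aurka made up 87.9% and 82.0% of the Aurora reads per kilobase with dTAG-13 and 63.4% and 82.6% with DMSO. The groups overlapped, and the difference of 11.9 percentage points had p = 0.667 (exact permutation test, two-sided). Aurkc made up 9.90% and 11.0% with dTAG-13 and 22.1% and 14.0% with DMSO, a difference of −7.57 points without overlap. Its p of 0.333 is the smallest that 2 against 2 libraries allow (exact permutation test, two-sided). Aurkb made up 2.25% and 6.99% with dTAG-13 and 14.6% and 3.40% with DMSO (−4.37 points, exact permutation p = 0.667). Thus Aurka held the largest share of the 3 in each of the 4 libraries, and Aurkc a larger one than Aurkb in each. As a share of reads, not per kilobase, Aurkb had 95% Wilson intervals of 2.15% to 2.49% and 6.88% to 7.56% with dTAG-13 and of 14.2% to 16.7% and 2.86% to 4.35% with DMSO, which cover counting error only. Adjusted over these 3 comparisons (Benjamini-Hochberg), each exact permutation p was 0.667.

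**Figure D4:**
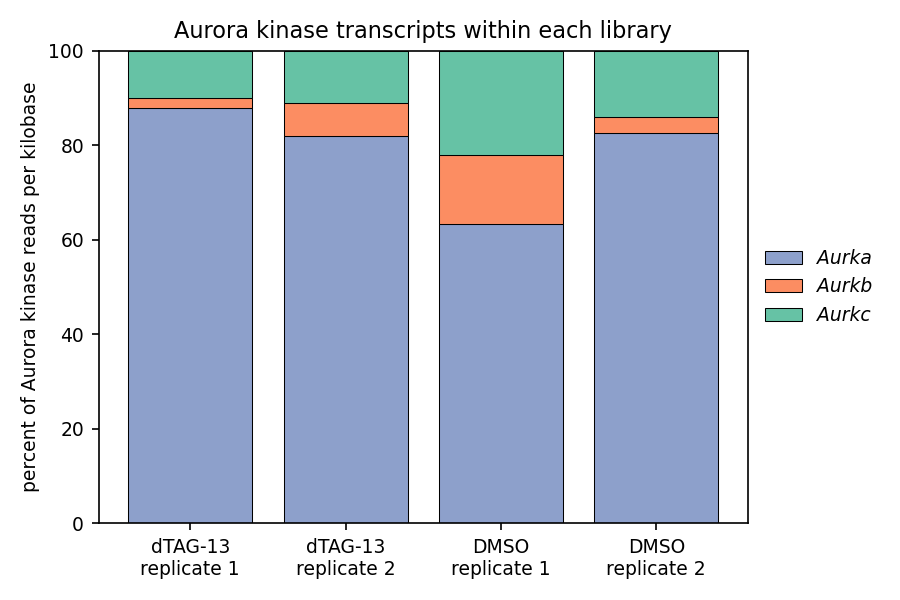
Share of Aurka (blue), Aurkb (orange) and Aurkc (green) in the summed Aurora kinase reads per kilobase (vertical axis, percent) in each library, dTAG-13 on the left and DMSO on the right. Aurka is the largest share in each library, from 63.4% in DMSO replicate 1 to 87.9% in dTAG-13 replicate 1.

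Ratios of the passenger subunits to Aurkb, also within libraries, were dominated by the spread of Aurkb. On the log2 scale per kilobase, Cdca8 over Aurkb was 6.27 and 4.81 with dTAG-13 and 4.11 and 5.58 with DMSO, a difference of 0.70 (exact permutation p = 0.667). For Birc5 the log2 ratio was 4.43 and 3.001 with dTAG-13 and 3.57 and 6.44 with DMSO, a difference of −1.29 (exact permutation p = 0.667). For Incenp and Aurkc the differences were −0.08 (p = 1) and 0.08 (p = 0.667) by the same exact permutation test; adjusted over the 4 ratios, the values were 0.889 for Cdca8, Birc5 and Aurkc and 1 for Incenp. The groups overlapped in all 4 ratios. Cdca8 over Incenp per kilobase was 19.9 and 22.0 with dTAG-13 and 9.73 and 15.4 with DMSO, without overlap (exact permutation p = 0.333, the smallest possible).

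The partners of these genes were read from 6 lists of 68 genes, of which 66 were tested; 13 were higher, 6 were lower and 47 did not pass (limma), with a median log2 fold change of 0.71, beside the 8.94% higher and 9.79% lower among all genes tested. On mitochondrial scaling 0 of them and 0 of all genes passed (40 of them with unadjusted p under 0.05, as had 5565 of all genes). On oocyte scaling 52 were higher and 1, Cep55, was lower, beside 7054 higher and 322 lower of all 15978 genes. Kif2b and Nek9 were not matched. Among partners of Aurora A, 3 of 10 were higher and 1 was lower (median log2 fold change 0.88). Ajuba, a LIM protein that activates Aurora A, had 770 and 1059 scaled reads with dTAG-13 and 166 and 192 with DMSO (log2 fold change 2.33 ± 0.43 SE; limma adjusted p = 0.0308). Aurkaip1, a negative regulator of Aurora A that is also a mitochondrial ribosome protein, had 3354 and 2331 scaled reads with dTAG-13 and 829 and 575 with DMSO (2.02 ± 0.37; limma adjusted p = 0.0309). Nedd9, a scaffold that activates Aurora A, was lower, at 184 and 222 scaled reads with dTAG-13 and 761 and 1776 with DMSO (−2.52 ± 0.55; limma adjusted p = 0.0399). On oocyte scaling its log2 fold change was −0.10 and did not pass. Bora, which Aurora A needs to activate Plk1, had 1097 and 896 scaled reads with dTAG-13 and 665 and 873 with DMSO and did not pass (limma adjusted p = 0.460).

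Of 15 genes of spindle assembly around Tpx2, 1 was higher and 0 were lower, beside 8.94% higher and 9.79% lower of all genes tested. Among the 15, 7 had an unadjusted p under 0.05 (39.2% of genes tested had one), and the median log2 fold change was 1.00. The higher gene was Kif11, the kinesin that pushes spindle poles apart, with 10631 and 11081 scaled reads with dTAG-13 and 4492 and 2057 with DMSO (1.84 ± 0.42; limma adjusted p = 0.0439). Kif11 did not pass with edgeR (adjusted p = 0.0643), no filter (0.0520), quantile normalization (0.0739) or libraries scaled to equal sums (0.0618). Among the 9 tested genes that recruit the passenger complex or are its targets, 1 was higher and 0 were lower, beside the same 8.94% and 9.79%. An unadjusted p under 0.05 was found for 2, a smaller share than the 39.2% of genes tested, and the median was 0.73. The higher gene of this list was Gsg2, which encodes haspin, the kinase that writes the histone mark read by survivin. It had 3061 and 2856 scaled reads with dTAG-13 and 518 and 761 with DMSO (2.23 ± 0.34; limma adjusted p = 0.0244). Bub1, the other kinase that marks centromeres for the complex, had 3569 and 1991 scaled reads with dTAG-13 and 2857 and 1734 with DMSO and did not pass (limma adjusted p = 0.682).

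In the list of midzone and cytokinesis genes, which holds the partners of Prc1, 5 of 11 were higher and 1 was lower (median log2 fold change 1.20). Over all genes tested 8.94% were higher and 9.79% lower. An unadjusted p under 0.05 was found for 9 of the 11, against 39.2% of genes tested. Kif4, the kinesin that works with Prc1 to set midzone length, had 7570 and 6061 scaled reads with dTAG-13 and 2316 and 1795 with DMSO (1.73 ± 0.28; limma adjusted p = 0.0262). Kif20b, a kinesin of late cytokinesis, had 17019 and 17504 with dTAG-13 and 4130 and 5524 with DMSO (1.85 ± 0.25; limma adjusted p = 0.0224). Kif20a, which carries the passenger complex to the midzone, Racgap1 of the centralspindlin complex and Anln (anillin) were the other higher genes, with log2 fold changes of 2.01, 1.75 and 1.20. Cep55, the abscission protein at the midbody that Plk1 keeps away until late mitosis, moved the other way. It had 309 and 444 scaled reads with dTAG-13 and 3624 and 7115 with DMSO (−3.77 ± 0.45; limma adjusted p = 0.0219).

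No other Polo kinase passed as higher. Of 8 tested genes among Polo kinases and their partners, 0 were higher and 3 were lower, beside 8.94% higher and 9.79% lower of all genes tested. Among the 8, 5 had an unadjusted p under 0.05 (39.2% of genes tested had one), and the median log2 fold change was −1.76. Plk4, the kinase of centriole duplication, had 1986 and 1849 scaled reads with dTAG-13 and 8810 and 15161 with DMSO (−2.59 ± 0.34; limma adjusted p = 0.0220). Plk2 had 840 and 393 scaled reads with dTAG-13 and 4507 and 2643 with DMSO (−2.58 ± 0.51; limma adjusted p = 0.0342). Fbxo43, the inhibitor of the anaphase-promoting complex known from egg arrest, was the third lower gene (−2.68; limma adjusted p = 0.0349). Plk3 had 2418 and 1860 scaled reads with dTAG-13 and 813 and 1153 with DMSO, without overlap, and did not pass (limma adjusted p = 0.0792). Plk5 had 0 reads in both dTAG-13 libraries and 12.01 and 73.05 scaled reads in the DMSO libraries, at least 21.5-fold lower against the floor of 3 reads per library (at least 6.07-fold without DMSO replicate 2 and 36.9-fold without DMSO replicate 1), and did not pass (limma adjusted p = 0.0862). Plk5 is the lowest value of the list with or without that bound in its place, so the median stands at −1.76 either way. On oocyte scaling, Plk4 (−0.16) and Plk2 (−0.16) no longer passed.

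Among 13 opposing phosphatases and genes of the anaphase-promoting complex, 3 were higher and 1 was lower (median log2 fold change 0.29). Over all genes tested 8.94% were higher and 9.79% lower. An unadjusted p under 0.05 was found for 7 of the 13, against 39.2% of genes tested. Cdc20, the activator of that complex, had 13507 and 10831 scaled reads with dTAG-13 and 4480 and 2656 with DMSO (1.81 ± 0.34; limma adjusted p = 0.0313); it did not pass under quantile normalization. Ppp2r2a, a regulatory subunit of phosphatase PP2A, had 10284 and 10167 with dTAG-13 and 3529 and 4255 with DMSO (1.40 ± 0.23; limma adjusted p = 0.0271). Arpp19, which inhibits that form of PP2A when phosphorylated, was lower, at 1047 and 1605 with dTAG-13 and 4863 and 10077 with DMSO (−2.43 ± 0.46; limma adjusted p = 0.0315), but stood at −0.005 on oocyte scaling and did not pass there.

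**Figure D5:**
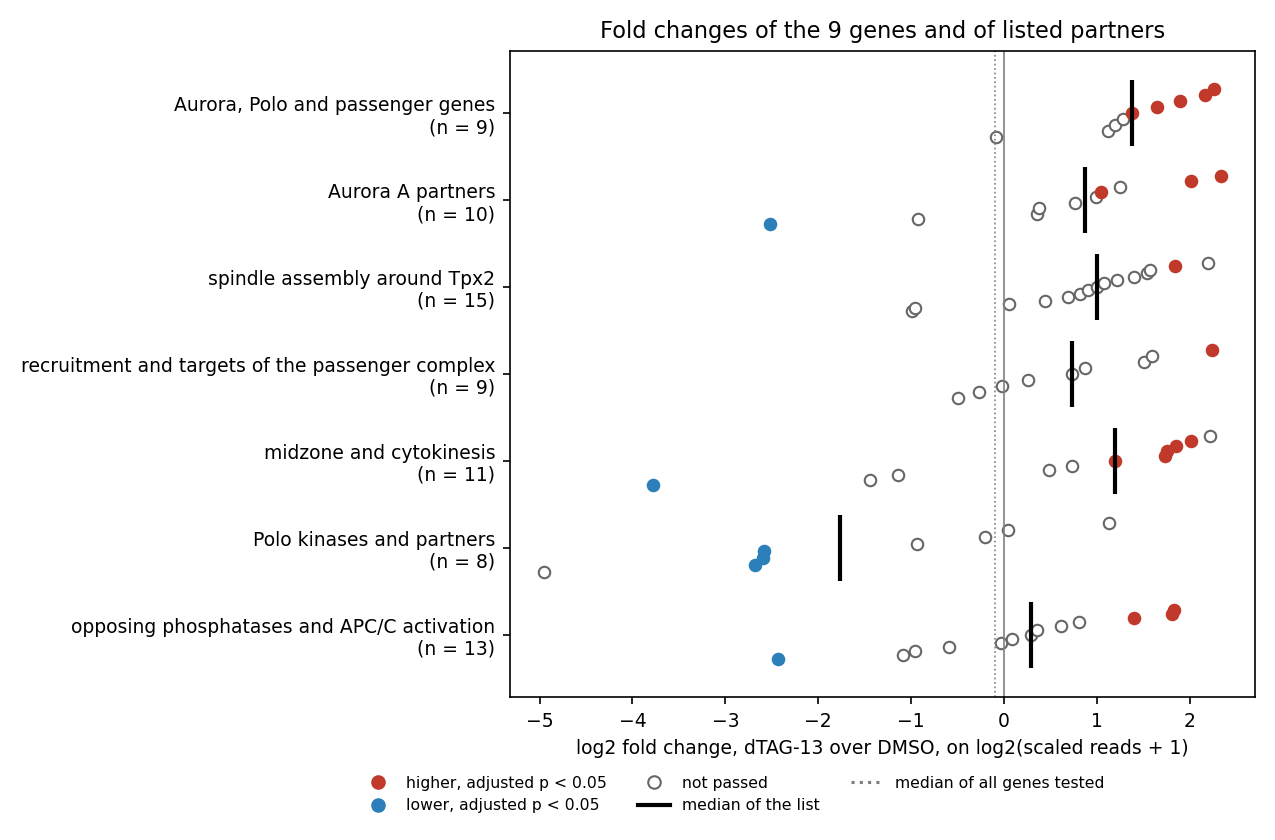
Log2 fold change, dTAG-13 over DMSO, of each tested gene in the 9 genes and in 6 lists of partners; red is higher and blue is lower at a limma adjusted p under 0.05, open circles did not pass, black bars are list medians and the dotted line is the median of all genes tested (−0.10). The Polo list lies lowest, with a median of −1.76; its leftmost point is Plk5, which had no read with dTAG-13.

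The genes closest to Prc1 in pattern were found by the root mean square difference of centred log2 values over the 4 libraries. Ranked were the 8521 other genes whose mean reached 100 scaled reads, leaving out predicted genes, clone names and pseudogenes. The closest were Tsr1 (0.0291), Fam58b (0.0362), Rnf7 (0.0382), Rusc1 (0.0440) and Pramel6 (0.0456), in log2 units. Tsr1, a ribosome assembly factor, had 8368 and 7922 scaled reads with dTAG-13 and 2303 and 1385 with DMSO. Of the other 8 genes Cdca8 came nearest, at rank 78 (0.135), and Aurka followed at rank 732, Plk1 at 814 and Tpx2 at 955. Birc5 was farthest, at rank 4298. With 4 libraries such ranks describe a pattern and no more.

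The 3′ ends were examined because the libraries were made from polyadenylated RNA and because the tail of stored oocyte transcripts is known to be lengthened at the cytoplasmic polyadenylation element, bound by Cpeb1. The letters TTTTAT or TTTTAAT were searched on the sense strand in the last 100 bases of the longest principal transcript (GENCODE vM21). They were found in the 3 Aurora kinases and not in the other 6 genes, against 18.8% of 13062 genes tested, 18.1% of those higher with dTAG-13 and 26.3% of those lower. The 30-base sites, in the last exon of each kinase (GRCm38), are printed with the matched letters, called element below, in capitals. Whether any of these matches works as such an element was not tested.
Aurka, chr2:172356231-172356260, minus strand, element 59 bases from the 3′ end: gctattTTTTATgttggagttctgtcatgt
Aurkb, chr11:69051622-69051651, plus strand, element 37 bases from the 3′ end: acaacaTTTTATaataaagtcttaaatgtt
Aurkc, chr7:7003042-7003071, plus strand, element 44 bases from the 3′ end: tttctcTTTTATgaagtgatgttaattaaa
A poly(A) signal, AATAAA or ATTAAA, lay in the last 100 bases of 8 of the 9 genes, all but Aurka, against 80.4% of genes tested. Of the Aurora kinases, which share the letter match, Aurka rose and the other 2 did not pass.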

How the data were processed

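RNA was sequenced from 4 pools of 3 mouse 2-cell embryos, 2 pools per group; per the labels' protocols the SMART-seq v4 libraries were not stranded. The labels do not state separate parents or days for the 2 pools of a group; p-values therefore rest on the spread between pools alone, and this spread may be technical. The submitters' processing notes name bcl2fastq, Picard, HTSeq, DESeq and the build mm10. Aligner, annotation release and the counting of shared reads: not given in the sources used here. Signal values as deposited are gene reads after division by the authors' size factor of the library. All (100%) were whole multiples of each column's lowest positive value (tolerance 1e-04 reads); in count tests on these reads edgeR counted 2172 genes and DESeq2 5056. The authors' deposited table gives, for 16281 genes, log2 ratios of treated over DMSO, p-values and adjusted p-values.

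The 15978 genes averaging 10 scaled reads or more were compared on log2(value + 1) with limma 3.58.1 (lmFit, eBayes with trend, R 4.3.3), two-sided, with Benjamini-Hochberg adjustment over all genes and a threshold of 0.05. Fold changes on this scale understate those of low genes. Alternatives used edgeR 4.0.16 and DESeq2 1.42.0 on the recovered reads, other pseudocounts, filters and scalings, a replicate block and each library left out. Shares and ratios within libraries used exact permutation tests. The limma script was tested on simulated data. Lengths are merged exons of GENCODE vM21. A count of 0 allows up to 3 reads, which is 1.87 and 2.09 scaled reads in the dTAG-13 and 3.60 and 4.87 in the DMSO libraries; floors and intervals cover counting error only, since reads carry no molecular identifiers.

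The 9 genes, the lists and the naming rule were chosen with earlier results of these data known. Named by rule were all 9 genes, from each list up to 2 genes per direction with the smallest p among those past the threshold, and the 5 genes most like the gene of highest mean, without predicted genes, clone names and pseudogenes. Rccd1, Gm12463, Bora, Bub1, Kif20a, Racgap1, Anln, Fbxo43, Plk3 and Plk5 were named after their values were seen. The Plk5 bounds with a DMSO library left out were added after the data were seen.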

Additional observations from a re-analysis of the deposited data

How the results depend on the processing

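The count of the 9 genes that passed, 5 with the authors' scaling, was 4 to 6 under edgeR, DESeq2, a pseudocount of 0.5 or 10, either filter on low values, equal sums, quantile normalization (where Tpx2 was lost) and the replicate block. It was 0 without a variance trend (5 with unadjusted p under 0.05), 0 with libraries scaled on the 13 mitochondrially encoded genes (7 with unadjusted p under 0.05) and 9 with libraries scaled on oocyte transcripts. The cause was not tested. With 1 library left out it was 0 to 1. Listed partners that passed, 19 with the authors' scaling, numbered 35 with DESeq2, 30 with a mean of at least 50, 0 without a trend (20 with unadjusted p under 0.05), 0 on mitochondrial scaling (40) and 53 on oocyte scaling, and 0 to 6 with 1 library left out. Over all genes 2993 passed (1428 higher, 1565 lower); this was 5056 with DESeq2, 589 without a trend, 0 on mitochondrial scaling (5565 with unadjusted p under 0.05), 7376 on oocyte scaling (7054 higher, 322 lower) and 0 to 1133 with 1 library left out, 0 without either dTAG-13 library (3519 and 3879 with unadjusted p under 0.05).

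The scalings move all genes: the median over all genes was −0.10 as deposited, 0.79 on mitochondrial and 2.21 on oocyte scaling, and the median of the 9 genes was 1.38, 2.32 and 3.81, and 1.13 to 1.81 with 1 library left out. Birc5 reversed, to 0.85 on mitochondrial and 2.34 on oocyte scaling, and ranged from −0.44 to 0.26 with 1 library left out. Relative to the median of all genes it was 0.01 as deposited and 0.13 on oocyte scaling, where Aurka was 2.36 and 2.48. Subtracting the median takes out most of a shift that all genes share.

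With 1 library left out, the difference in share ranged from 2.33 to 21.5 points for Aurka, −9.96 to 1.22 for Aurkb and −11.6 to −3.55 for Aurkc. The log2 ratio to Aurkb ranged from −0.88 to 0.72 for Incenp, −2.73 to 0.15 for Birc5, −0.036 to 1.43 for Cdca8 and −0.66 to 0.82 for Aurkc. The lone library of a group is assumed to vary like the others. The labels do not say whether equal replicate numbers pair the libraries. Deviations of same-numbered libraries had r = −0.01, which cannot settle how the pools were made. With the replicate block 5 of the 9 genes and 3687 of all genes passed. Depth was lower in DMSO libraries, where Aurkb rested on as few as 85 reads.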
